A study of Mus musculus with 16 samples.

Results

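The Slc2a genes encode the GLUT proteins, the facilitative carriers that let glucose, fructose and related hexoses cross cell membranes. Here 10 mouse members (Slc2a1, Slc2a3, Slc2a4, Slc2a5, Slc2a6, Slc2a8, Slc2a9, Slc2a10, Slc2a12 and Slc2a13) were followed in hippocampal RNA-seq. They were picked by gene name out of 22572 named genes of the table, and where a name stood at more than 1 locus, the loci were summed. Of the 10, 8 averaged 1 FPKM or more and were tested together with all 12648 named genes that passed this filter, and Slc2a4 and Slc2a10 lay under it. FPKM counts fragments relative to transcript length and library size, so levels can be set side by side between genes.

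The study asked what a fructose drink does to the hippocampus in mice with and without biglycan, a small proteoglycan of the extracellular matrix encoded by the X-linked gene Bgn. All mice were male C57BL/6, and each of the 4 groups held 4 libraries from dissected, flash-frozen hippocampus. The WT water group was wild type with regular drinking water and the WT fructose group was wild type with 15% (w/v) fructose in the drinking water. The BgnKO water and BgnKO fructose groups carried the Bgn knockout (Bgn0/-) and had the same drinks, regular water and 15% fructose. The drinks were given for 6 weeks from 3 months of age, and the labels name no other agent or allele. They do not say that the libraries of a group came from separate mice, so p-values measure the spread between libraries, which may in part be technical.

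Glucose reaches the brain through Slc2a1 (GLUT1), which sits in the endothelium of the blood-brain barrier and, in a less glycosylated form, in astrocytes. Neurons take it up mainly through Slc2a3 (GLUT3), a high-affinity carrier. Fructose is carried by Slc2a5 (GLUT5), which in brain is best known from microglia, while Slc2a4 (GLUT4) and Slc2a8 (GLUT8) are mostly held inside cells, Slc2a4 moving to the surface under insulin. Slc2a9 (GLUT9) carries urate, Slc2a13 (HMIT) carries myo-inositol with protons, and Slc2a6, Slc2a10 and Slc2a12 are less studied.

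The named loci of a library summed to 342721 to 376209 FPKM, unnamed loci took 46.8 to 70.4% of all FPKM, and 12343 to 12885 named genes reached 1 FPKM. The files give no read counts, so depth is unknown and no counting interval is given. The 4 libraries numbered replicate 1 stood apart from the other 12 in every group: the root mean square log2 difference between a replicate 1 library and another had a median of 0.380, against 0.276 among the other 12 and 0.281 among the 4. Bgn itself, the check of the labels, ranged from 4.46 to 7.60 FPKM over the 8 BgnKO libraries and from 5.42 to 24.2 FPKM over the 8 WT ones. The lowest WT value, 5.42 FPKM, belonged to the library labelled WT fructose replicate 1, which on Bgn lay within the BgnKO range. Bgn fell by 1.08 on the log2 scale in BgnKO averaged over the drinks (limma adjusted p = 0.0168). Within each drink the same test did not call it. The log2 fold was -1.09 on water (limma adjusted p = 0.370) and -1.07 on fructose (limma adjusted p = 0.0869). Of 12 genes that mark hippocampal neurons, 11 were in the table under their own name, all passed the filter, and their summed level was 305 to 527 FPKM.

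In level, the family was led by the barrier and neuronal carriers. Slc2a1 averaged 49.0 FPKM over the 16 libraries, Slc2a3 31.03 FPKM and Slc2a13 18.6 FPKM, and these 3 made up 40.6%, 25.7% and 15.4% of the summed mean level of the 10 members. Slc2a6 (7.82 FPKM), Slc2a8 (6.30 FPKM) and Slc2a12 (3.65 FPKM) came next, and the fructose carrier Slc2a5 (1.86 FPKM) and the urate carrier Slc2a9 (1.35 FPKM) just passed the filter. Slc2a10 and Slc2a4 averaged 0.612 and 0.532 FPKM. The order Slc2a1 over Slc2a3 over Slc2a13 over Slc2a6 over Slc2a8 held in 16 of 16 libraries at each step. Slc2a8 was above Slc2a12 in 14 of 16 libraries and Slc2a12 above Slc2a5 in 12 of 16, so neither of these neighbours was separated in all libraries, and Slc2a10 was above Slc2a4 in 10 of 16. Slc2a5 was above Slc2a9, and Slc2a9 above Slc2a10, in all 16. The remaining family names of the table were near or at 0: Slc2a2 (GLUT2), the low-affinity carrier of liver and pancreatic islets, reached at most 0.0461 FPKM, and Slc2a7 was listed at 0 in all 16 libraries.

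**Figure D1:**
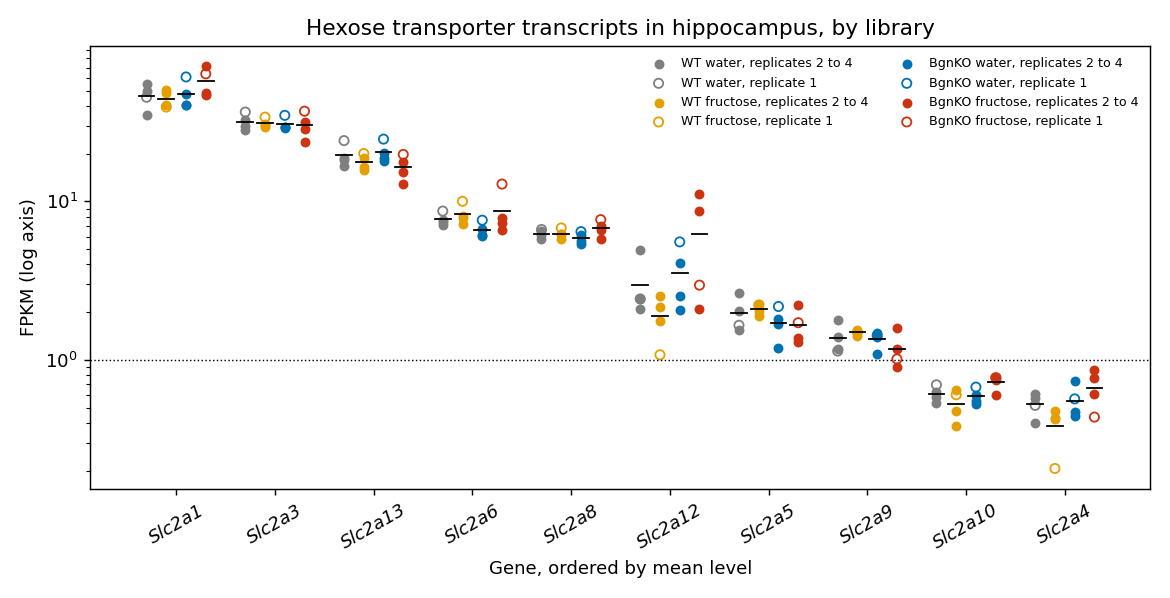
FPKM of the 10 hexose transporters (log axis) by gene, in order of mean level, with 4 libraries in each of the 4 groups. Open circles are replicate 1 libraries, filled circles replicates 2 to 4, black bars the group means, and the dotted line is the filter of 1 FPKM. Slc2a1 leads in all libraries and Slc2a12 has the widest spread, from 1.08 to 11.1 FPKM.

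The genes lie on 7 chromosomes of GRCm38 (mm10). Slc2a1 is at chr4:119108711-119137983, on the plus strand. On the same chromosome and strand, Slc2a5 is at chr4:150119283-150144169, next to Slc2a7 at chr4:150148972-150168482. Slc2a12 is at chr10:22645011-22704285, also on the plus strand. Slc2a3 is at chr6:122727809-122801640, Slc2a13 at chr15:91267696-91573261 and Slc2a9 at chr5:38349273-38503143, all on the minus strand. No stretch of 31 bases was shared between any of the members' transcripts, so reads of 1 member could not be taken for another over such a length.

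The stretches just upstream of 3 of these genes are printed: the most abundant member, the classical fructose carrier, and the member with the widest spread. No expression result uses these stretches. They end at the base before the annotated start of the gene, come from RefSeq for GRCm38.p6 (8 of the 10 members had an entry), and lie at chr4:119108495-119108710, chr4:150119094-150119282 and chr10:22644761-22645010, all on the plus strand. Capitals mark matches to the GC box GGGCGG, read on either strand (CCGCCC on the other).
Slc2a1 upstream: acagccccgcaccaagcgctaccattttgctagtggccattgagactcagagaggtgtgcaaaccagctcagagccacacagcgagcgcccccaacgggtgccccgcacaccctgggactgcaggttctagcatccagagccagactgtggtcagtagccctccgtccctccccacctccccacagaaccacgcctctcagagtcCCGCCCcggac
Slc2a5 upstream: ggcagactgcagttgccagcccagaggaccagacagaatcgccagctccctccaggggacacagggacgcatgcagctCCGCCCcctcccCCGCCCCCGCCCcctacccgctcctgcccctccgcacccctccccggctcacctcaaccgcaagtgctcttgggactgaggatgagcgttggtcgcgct
Slc2a12 upstream: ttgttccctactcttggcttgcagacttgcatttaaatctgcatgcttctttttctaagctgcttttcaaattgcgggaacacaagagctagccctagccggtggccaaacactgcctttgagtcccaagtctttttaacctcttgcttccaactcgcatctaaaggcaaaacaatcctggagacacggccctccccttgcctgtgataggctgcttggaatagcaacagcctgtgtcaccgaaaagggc
The 216 bases before Slc2a1 held 1 GC box, and 27.9% of 32851 promoters cut to the same length held at least 1. The 189 bases before Slc2a5 held 3, and 22.6% of promoters cut to that length held at least 1. The 250 bases before Slc2a12 held 0, where 32.7% of promoters of that length held at least 1. The E-box CACGTG, the hypoxia response core ACGTG and the TATA box TATAAA, searched on both strands, had 0 matches in all 3 stretches. A match is a description of these letters and not a site of binding.

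Across the 7 comparisons of the design, 0 of the 8 tested members passed limma's test at a Benjamini-Hochberg adjusted p of 0.05. On water, BgnKO against WT gave 0 members, with 0 at an unadjusted p under 0.05, where 0.387% of all tested genes were called. On fructose, the same comparison gave 0 members, with 1 (Slc2a12) at an unadjusted p under 0.05, where 3.76% of genes were called. Fructose against water gave 0 members in WT, with 0 unadjusted, and 0 members in BgnKO, with 2 unadjusted (Slc2a13 and Slc2a8). The shares of all genes called there were 0.00791% and 0%. The interaction gave 0 members and 0 unadjusted (0.00791% of genes). BgnKO against WT averaged over the drinks gave 0 members and 1 unadjusted (Slc2a12), where 4.99% of genes were called. Fructose against water averaged over the genotypes gave 0 members and 1 unadjusted (Slc2a13), where 0.00791% of genes were called.

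As a set, the members lay close to all genes. In BgnKO against WT on fructose, 4 of the 8 had a positive log2 fold and the median of the 8 was -0.02, beside a median of -0.01 over all tested genes, of which 47.5% were positive. On water, 3 of 8 were positive, with a median of -0.03 beside 0.00 for all genes. For fructose against water, 3 of 8 were positive in WT (median -0.01, all genes 0.01) and 4 of 8 in BgnKO (median 0.07, all genes 0.01). Each genotype comparison shares a group with each drink comparison, so genotype and drink folds are not separate evidence. All folds are of FPKM + 1 in log2, so for low genes such as Slc2a5 and Slc2a9 they are smaller than the fold of FPKM itself.

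**Figure D2:**
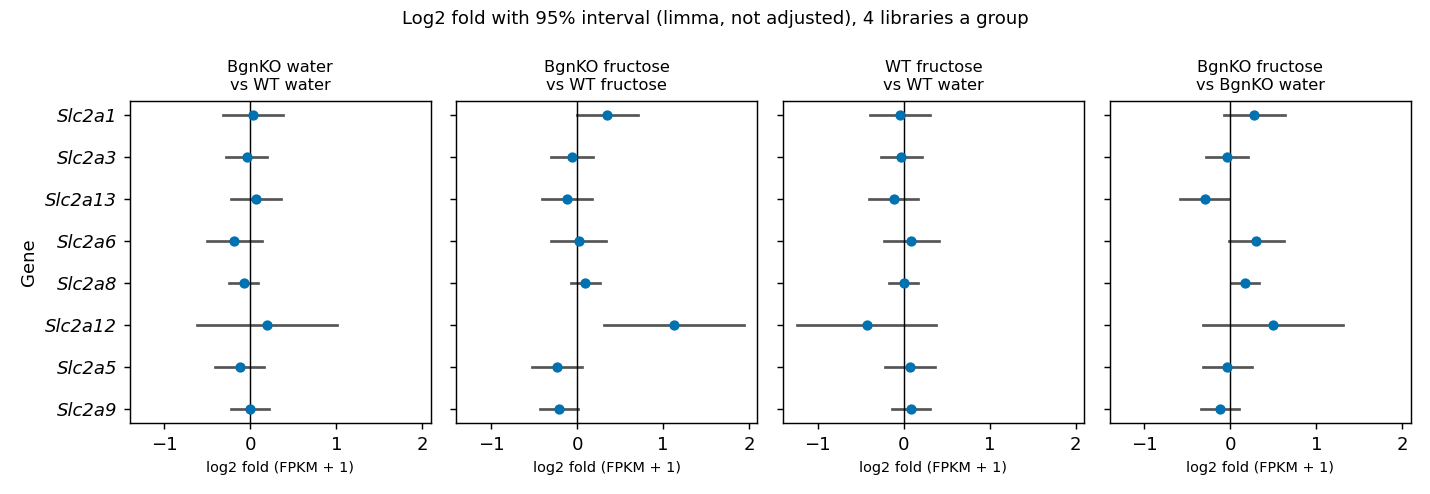
Log2 fold of FPKM + 1 for the 8 tested members in 4 comparisons, with limma's 95% interval (not adjusted for the number of genes) and 4 libraries a group. The Slc2a12 interval in BgnKO against WT on fructose lies from 0.31 to 1.93, and the other intervals span 0 but for Slc2a13 and Slc2a8 in fructose against water in BgnKO.

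Slc2a12 (GLUT12), a glucose carrier first described in a breast cancer line, showed the widest spread of the family and the largest fold. In the order of replicates 1 to 4, which is kept below, it stood at 2.42, 2.40, 2.08 and 4.90 FPKM in WT water and at 1.08, 2.53, 2.16 and 1.75 FPKM in WT fructose, the first of these being the library labelled WT fructose replicate 1. In BgnKO water it stood at 5.55, 4.07, 2.54 and 2.07 FPKM, and in BgnKO fructose at 2.96, 8.71, 2.08 and 11.1 FPKM. The high values thus came from replicates 2 and 4 of BgnKO fructose, and the groups overlapped: 3 of the 4 BgnKO fructose libraries lay above all WT fructose libraries and replicate 3 did not. On fructose the mean was 6.21 ± 4.39 FPKM in BgnKO and 1.88 ± 0.624 FPKM in WT (SD, n = 4). The log2 fold was 1.12 (SE 0.38, 95% interval 0.31 to 1.93), with an unadjusted p of 0.00992 and a limma adjusted p of 0.108, and 9.21% of all tested genes had a p as small. On water the fold was 0.19 (95% interval -0.62 to 1.00), and the interaction, which tests whether the 2 folds differ, was 0.93 (95% interval -0.22 to 2.08, adjusted p = 0.999). The fold on fructose was 0.97 with the library labelled WT fructose replicate 1 left out (adjusted p = 0.192), 0.80 without BgnKO fructose replicate 4 (adjusted p = 0.338) and 0.65 without both (adjusted p = 0.422). Without BgnKO fructose replicate 3 it was 1.46 (adjusted p = 0.0538). In replicates 2 to 4 alone it was 1.19 (adjusted p = 0.0867), and with a term for replicate 1 the fold of 1.12 had an adjusted p of 0.0558. Whether Slc2a12 was called depended on whether the replicate number was taken as a block, as the last section gives.

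Markers of the choroid plexus, the epithelium of the ventricles that borders the hippocampus, moved with Slc2a12 from library to library. Their summed level was 2786 to 6576 FPKM in WT water, 321 to 4916 FPKM in WT fructose, 955 to 6965 FPKM in BgnKO water and 2924 to 10254 FPKM in BgnKO fructose. Ttr (transthyretin), their most abundant, ran from 212 FPKM in the library labelled WT fructose replicate 1 to 8924 FPKM in BgnKO fructose replicate 4, the same 2 libraries that held the lowest and the highest Slc2a12. Over the 16 libraries, after the mean of the replicate 1 libraries and of the others was taken off, the log2 level of Slc2a12 and the mean of the 15 choroid plexus markers had a Pearson r of 0.922 and a Spearman rho of 0.971. Means of the 4 groups were not taken off, so differences between groups enter these and all later correlations over libraries. Each had a permutation p of 1e-05, the smallest that 100000 permutations can give, and an adjusted p of 0.0008 over the 80 pairs of a member and a marker list. The r was 0.900 without the 2 libraries farthest from the median of the markers and 0.917 in replicates 2 to 4, and all 15 markers had an r over 0.5 with Slc2a12 (0.683 to 0.969). No choroid plexus marker was at 0 in any library. All 15 had a positive fold in BgnKO against WT on fructose, with a median of 1.10 and 0 called. Among all tested genes there, 47.5% had a positive fold and 3.76% were called. Their part in the Slc2a12 difference was not tested, and in bulk tissue fewer cells of a type and less RNA per cell cannot be told apart.

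Ependymal markers also ran with Slc2a12 (r = 0.756, permutation p = 0.00056, adjusted p = 0.0149), but by rank this missed the threshold (rho = 0.756, permutation p = 0.00156, adjusted p = 0.0587). The r was 0.617 without the 2 farthest libraries. The 3 genes most like Slc2a12 over the 16 libraries were Slc4a2, an anion exchanger (r = 0.984), Col8a1, a short-chain collagen (r = 0.981), and Pon3, a paraoxonase (r = 0.980), given as a description. Of the exon bases of Slc2a12, 407 (9.61%) overlap Tbpl1 on the opposite strand, and the sources used here do not say whether the counting used strand. Tbpl1 lay between 15.6 and 25.5 FPKM and was at 16.7 and 15.6 FPKM in the 2 libraries with the highest Slc2a12, near the bottom of its own range.

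**Figure D3:**
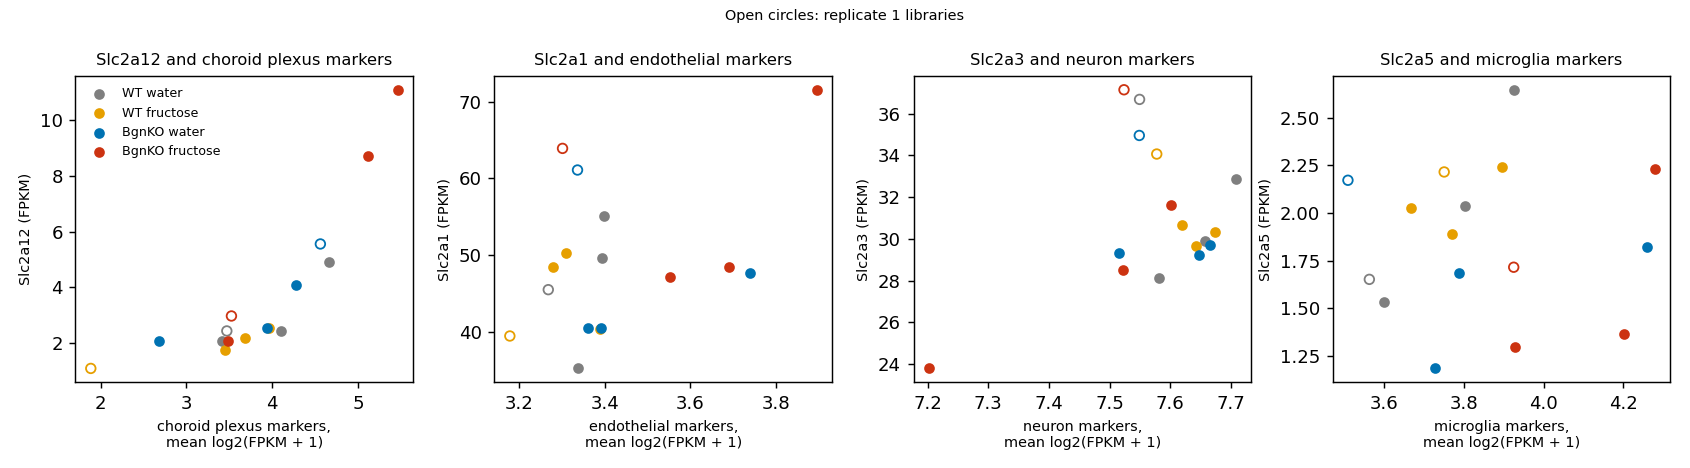
Level of 4 members (FPKM) against the mean log2(FPKM + 1) of markers of the cell type in which each is known or was examined: Slc2a12 and choroid plexus, Slc2a1 and endothelium, Slc2a3 and neurons, Slc2a5 and microglia. Each circle is 1 of 16 libraries, coloured by group as in the legend, open for replicate 1. Slc2a12 climbs with the choroid plexus markers over the whole range, and Slc2a5 shows no such relation with microglial markers.

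Slc2a1, the blood-brain barrier glucose carrier, had its highest group mean in BgnKO fructose. It stood at 45.5, 35.2, 49.7 and 55.1 FPKM in WT water and at 39.4, 48.4, 40.3 and 50.3 FPKM in WT fructose. Its BgnKO water values were 61.1, 40.5, 40.5 and 47.6 FPKM, and those of BgnKO fructose were 63.9, 47.2, 48.4 and 71.6 FPKM. All 4 BgnKO fructose libraries lay above the WT fructose mean, but replicates 2 and 3 lay within the WT fructose range. On fructose the means were 57.8 ± 11.9 FPKM in BgnKO and 44.6 ± 5.54 FPKM in WT (SD, n = 4). The log2 fold of 0.35 (SE 0.17, 95% interval -0.003 to 0.71) did not pass the test (limma adjusted p = 0.239). It was 0.19 with BgnKO fructose replicate 4 and the library labelled WT fructose replicate 1 left out (adjusted p = 0.637), and 0.24 in replicates 2 to 4 (adjusted p = 0.371). On water the fold was 0.03 (95% interval -0.32 to 0.38), and fructose against water gave -0.04 in WT and 0.28 in BgnKO (95% interval -0.08 to 0.63).

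Endothelial markers were also higher in BgnKO fructose: 12 of 12 tested had a positive fold against WT fructose, with a median of 0.31 and 1 called. Their sum was 127 to 146 FPKM in WT fructose and 156 to 213 FPKM in BgnKO fructose. Astrocyte markers showed the same direction in 14 of 14, with a median of 0.34 and 4 called, and sums of 1356 to 1488 FPKM against 1575 to 1996 FPKM. Of all tested genes in this comparison, 3.76% were called and 47.5% had a positive fold. No marker of either list was at 0. Slc2a1 had an r of 0.580 with the endothelial markers (permutation p = 0.0133, adjusted p = 0.0967; rho = 0.482, permutation p = 0.0504, adjusted p = 0.336), and 0.344 without the 2 farthest libraries, so the relation rests on those. Their part in the Slc2a1 difference was not tested. The genes most like Slc2a1 were Prr5, a component of the mTORC2 complex (r = 0.920), Mfsd2a, the lysophospholipid carrier of barrier endothelium (r = 0.915), and Lfng, a glycosyltransferase that modifies Notch (r = 0.913). Mfsd2a is itself 1 of the 12 endothelial markers, whose r with Slc2a1 ran from -0.081 to 0.915, with 7 over 0.5. Other lists had an r of like size with Slc2a1. It was 0.545 for meninges and fibroblasts, 0.530 for choroid plexus and 0.528 for pericytes and smooth muscle. For astrocytes it was 0.502 and for neurons -0.539 (permutation test, adjusted p = 0.174 for each list).

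Slc2a3, the neuronal glucose carrier, was the steadiest of the abundant members between groups. It stood at 36.7, 28.1, 32.9 and 29.9 FPKM in WT water and at 34.1, 29.7, 30.7 and 30.3 FPKM in WT fructose. BgnKO water gave 34.9, 29.2, 29.7 and 29.3 FPKM, and BgnKO fructose gave 37.1, 28.5, 31.6 and 23.8 FPKM. In every group replicate 1 was the highest: the 4 replicate 1 libraries (34.1 to 37.1 FPKM) all lay above the other 12 (23.8 to 32.9 FPKM). The log2 folds of all 7 comparisons lay between -0.06 and -0.01, and on fructose BgnKO against WT was -0.06 (95% interval -0.30 to 0.19, limma adjusted p = 0.817). The ratio of Slc2a1 to Slc2a3 ran from 1.16 to 3.01, with the highest value in BgnKO fructose replicate 4. The r of Slc2a3 with 15 neuronal markers was 0.841 (permutation p = 0.00478, adjusted p = 0.0590), but 0.237 without WT water replicate 3 and BgnKO fructose replicate 4, so it rests on these libraries. Its rho was 0.515 (permutation p = 0.0409, adjusted p = 0.336). The genes most like Slc2a3 were AI836003 (r = 0.924), Prkar1b, a regulatory subunit of protein kinase A (r = 0.920), and Npy, neuropeptide Y (r = 0.905).

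For Slc2a5, the carrier most specific for fructose, the difference between the drinks was smaller than the spread between libraries. It stood at 1.65, 2.65, 2.04 and 1.54 FPKM in WT water and at 2.22, 2.03, 2.24 and 1.89 FPKM in WT fructose. In BgnKO water it stood at 2.17, 1.19, 1.68 and 1.82 FPKM, and in BgnKO fructose at 1.72, 1.30, 1.36 and 2.23 FPKM. All WT fructose values lay inside the WT water range, and 3 of the 4 BgnKO fructose values lay inside the BgnKO water range. Fructose against water gave a log2 fold of 0.07 in WT (95% interval -0.22 to 0.36) and -0.03 in BgnKO (95% interval -0.32 to 0.25), with limma adjusted p-values of 1 and 0.935. In replicates 2 to 4 these folds were 0.005 and 0.03. BgnKO against WT gave -0.13 on water (95% interval -0.42 to 0.16) and -0.23 on fructose (95% interval -0.52 to 0.06, adjusted p = 0.339), where 3 of 4 BgnKO libraries lay below all WT libraries and replicate 4 lay inside the WT range.

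The relation of Slc2a5 with microglial markers did not pass (r = 0.0883, permutation p = 0.761, adjusted p = 0.962; rho = 0.182, permutation p = 0.519, adjusted p = 0.757), and none of the 15 had an r over 0.5 with it. Their summed level was 219 to 290 FPKM in WT water, 239 to 300 FPKM in WT fructose, 218 to 404 FPKM in BgnKO water and 310 to 408 FPKM in BgnKO fructose. Most like Slc2a5 over the libraries were Nudt6, a Nudix hydrolase (r = 0.812), Usp2, a deubiquitinase (r = 0.785), and Rnf123, a ubiquitin ligase (r = 0.782).

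Slc2a9, the urate carrier, ran with Slc2a5 across the libraries. It stood at 1.14, 1.77, 1.17 and 1.40 FPKM in WT water and at 1.49, 1.55, 1.41 and 1.53 FPKM in WT fructose. Its BgnKO water values were 1.43, 1.09, 1.40 and 1.49 FPKM, and those of BgnKO fructose were 1.01, 0.903, 1.17 and 1.58 FPKM. As for Slc2a5, 3 of the 4 BgnKO fructose libraries lay below all WT fructose libraries. Replicate 4 lay above all WT fructose libraries for Slc2a9, whereas for Slc2a5 it lay inside their range. The fold on fructose was -0.21 (SE 0.10, 95% interval -0.43 to 0.01, limma adjusted p = 0.249), it was -0.18 in replicates 2 to 4, and on water it was -0.01. Of the 28 pairs of tested members, Slc2a5 and Slc2a9 had the highest r, 0.812 (permutation p = 0.00026, adjusted p = 0.00588), with a rho of 0.782 (permutation p = 0.00079, adjusted p = 0.0111). The r was 0.738 without the 2 farthest libraries and 0.798 in replicates 2 to 4. The table holds 2 loci named Slc2a9, which were summed, and the lower one, at 0.0888 to 0.388 FPKM, made up 7.70 to 21.9% of the sum. The genes most like Slc2a9 were Zfp592, a zinc finger protein (r = 0.768), Mbd6, a methyl-CpG-binding domain protein (r = 0.765), and Smc4, a condensin subunit (r = 0.756).

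**Figure D4:**
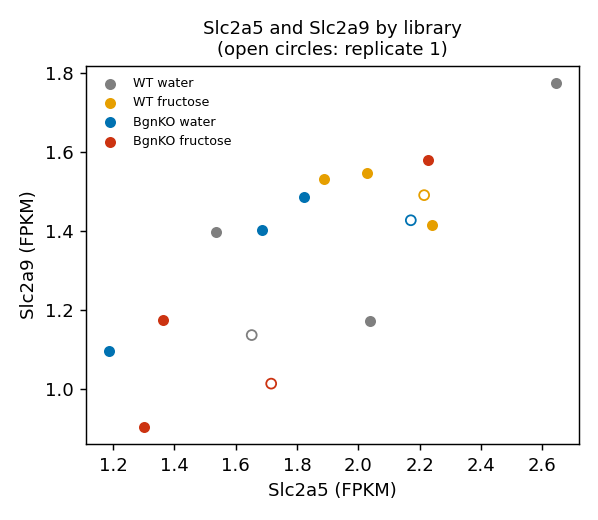
FPKM of Slc2a9 against FPKM of Slc2a5, 1 circle for each of 16 libraries, coloured by group and open for replicate 1. The libraries run from BgnKO water replicate 2 and BgnKO fructose replicate 2 at the lower left to WT water replicate 2 at the upper right.

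Slc2a13, the proton-coupled myo-inositol carrier, had its lowest group mean in BgnKO fructose. It stood at 24.2, 16.8, 18.7 and 18.4 FPKM in WT water and at 20.1, 18.8, 15.8 and 16.6 FPKM in WT fructose. BgnKO water gave 24.7, 20.2, 18.8 and 18.0 FPKM, and BgnKO fructose gave 19.8, 17.8, 15.4 and 12.9 FPKM. Within BgnKO, replicates 2 to 4 on fructose lay below all water libraries and replicate 1 did not. The means were 16.5 ± 2.98 FPKM on fructose and 20.4 ± 3.02 FPKM on water (SD, n = 4). The log2 fold was -0.30 (SE 0.14, 95% interval -0.59 to -0.01), with an unadjusted p of 0.0423 and a limma adjusted p of 0.374. It was -0.20 without BgnKO fructose replicate 4 (adjusted p = 0.796) and -0.30 in replicates 2 to 4 (adjusted p = 0.220). With a term for replicate 1 the fold of -0.30 had an adjusted p of 0.0900. The replicate number was also taken as a block, which treats fructose and water libraries of 1 number as paired. The labels do not say that a number marks a shared mouse or batch, and the pairing rests on replicate 1. This limit holds for each block value given here and below. With the block the fold of -0.30 had an adjusted p of 0.0605. In WT the same comparison gave -0.12 (95% interval -0.41 to 0.17), and the average over the genotypes was -0.21 (unadjusted p = 0.0444, adjusted p = 0.460). With the block that average had an adjusted p of 0.0872.

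Markers of oligodendrocytes ran against Slc2a13 (r = -0.833, permutation p = 0.0002, adjusted p = 0.008), with 9 of 12 markers at an r below -0.5 (-0.908 to -0.0636 over the 12) and an r of -0.806 without the 2 farthest libraries. By rank this missed the threshold (rho = -0.706, permutation p = 0.00444, adjusted p = 0.0888). The microglial markers behaved alike (r = -0.730, permutation p = 0.00189, adjusted p = 0.0378, and rho = -0.753, permutation p = 0.0022, adjusted p = 0.0587). For fructose against water in BgnKO, all 12 oligodendrocyte markers had a positive fold (median 0.23, 0 called), with sums of 1843 to 2257 FPKM on water and 2162 to 3344 FPKM on fructose, and all 15 microglial markers did too (median 0.26, 0 called). So did all 14 astrocyte markers (median 0.19, 0 called), with sums of 1396 to 1975 FPKM on water and 1575 to 1996 FPKM on fructose. Of all tested genes in this comparison, 51.8% had a positive fold and 0% were called. Neuronal markers were positive in 3 of 15 (median -0.14, 0 called), with sums of 4203 to 4782 FPKM on water and 3686 to 4672 FPKM on fructose. Their r with Slc2a13 was 0.665 (permutation p = 0.0181, adjusted p = 0.104, and rho = 0.362, permutation p = 0.137, adjusted p = 0.495), and 0.162 without WT water replicate 3 and BgnKO fructose replicate 4, so it rests on these libraries. No marker of the 4 lists was at 0, and their part in the Slc2a13 values was not tested. Most like Slc2a13 over the libraries were Fgf12, a regulator of neuronal sodium channels (r = 0.965), C77370 (r = 0.957) and Rab27b, a GTPase of vesicle release (r = 0.952).

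**Figure D5:**
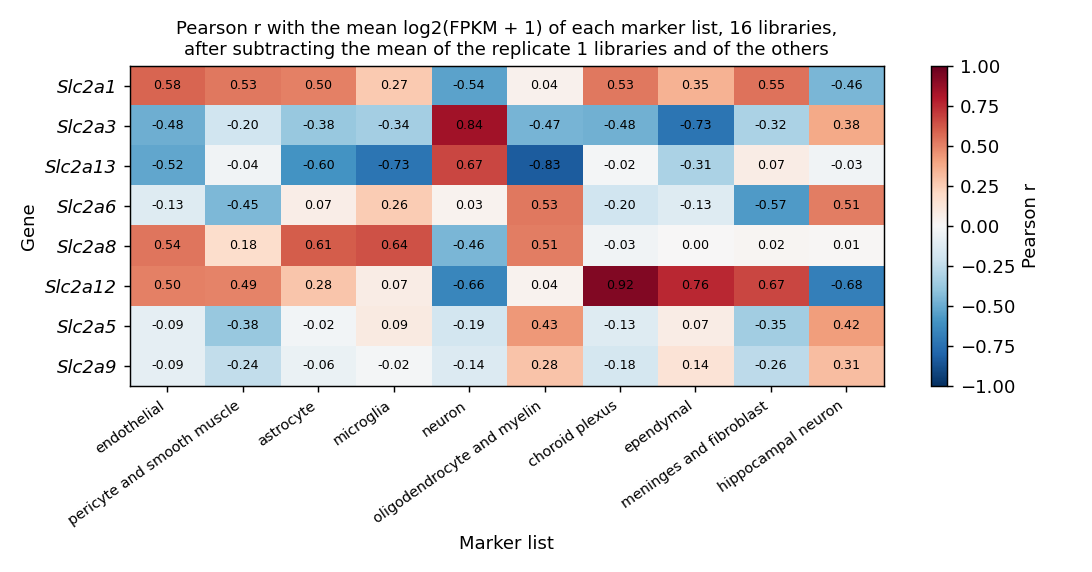
Pearson r between each of the 8 tested members (vertical axis) and the mean log2(FPKM + 1) of each of 10 marker lists (horizontal axis) over 16 libraries, after the mean of the replicate 1 libraries and of the others was subtracted. Slc2a12 with choroid plexus has the highest r (0.922) and Slc2a13 with oligodendrocytes the lowest (-0.833).

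Slc2a8, a mostly intracellular hexose carrier, varied least of the 10 over the 16 libraries, with a coefficient of variation of 9.19%. It stood at 6.65, 5.77, 6.53 and 6.14 FPKM in WT water and at 6.80, 5.78, 6.27 and 6.21 FPKM in WT fructose. In BgnKO water it stood at 6.45, 5.37, 5.67 and 6.12 FPKM, and in BgnKO fructose at 7.68, 5.82, 6.62 and 6.998 FPKM. Within BgnKO, 3 of the 4 fructose libraries lay above all water libraries and replicate 2 did not. The log2 fold there was 0.17 (SE 0.08, 95% interval 0.002 to 0.34), with an unadjusted p of 0.0474 and a limma adjusted p of 0.385, and in WT it was -0.002 (95% interval -0.17 to 0.17). In replicates 2 to 4 the fold in BgnKO was 0.15 (adjusted p = 0.276). With a term for replicate 1 the fold of 0.17 had an adjusted p of 0.112, and with the replicate number as a block 0.0638. Slc2a8 and Slc2a13 ran against each other over the libraries (r = -0.782, permutation p = 0.00042, adjusted p = 0.00588, and rho = -0.768, permutation p = 0.00061, adjusted p = 0.0111), with an r of -0.608 without the 2 farthest libraries. This and the pair of Slc2a5 and Slc2a9 were the 2 of 28 pairs of members that passed by both measures. The genes most like Slc2a8 were Rab1b, a GTPase of early secretory traffic (r = 0.954), Guk1, guanylate kinase (r = 0.931), and Sbk1, a kinase (r = 0.930).

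Slc2a6 (GLUT6), a lysosomal carrier of the same class, also had high replicate 1 libraries, 3 of the 4 lying above all others. It stood at 8.70, 7.40, 7.13 and 7.62 FPKM in WT water and at 10.02, 7.22, 7.83 and 8.15 FPKM in WT fructose. Its BgnKO water values were 7.61, 6.09, 6.65 and 6.18 FPKM, and those of BgnKO fructose were 12.9, 6.60, 7.83 and 7.27 FPKM. On water all 4 BgnKO libraries lay below the WT mean and 3 lay below all WT libraries, but the fold of -0.19 (95% interval -0.51 to 0.13) had a limma adjusted p of 1. In replicates 2 to 4 the fold on water was -0.20 (limma unadjusted p = 0.0139, adjusted p = 0.320). On fructose it was -0.09 there (adjusted p = 0.405), against 0.02 in all libraries. Averaged over the drinks it was -0.14 in replicates 2 to 4 (unadjusted p = 0.0129, adjusted p = 0.0736). In BgnKO, fructose against water gave 0.30 (SE 0.15, 95% interval -0.02 to 0.62, adjusted p = 0.412), 0.11 without BgnKO fructose replicate 1 (adjusted p = 0.569) and 0.17 in replicates 2 to 4 (adjusted p = 0.235). With a term for replicate 1 the fold of 0.30 had an adjusted p of 0.0907, and with the replicate number as a block 0.0730. Most like Slc2a6 over the libraries were Thop1, a peptidase that cleaves neuropeptides (r = 0.882), D2Wsu81e (r = 0.877) and Adra1d, an adrenergic receptor (r = 0.877).

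The 2 members under the filter had their highest group means in BgnKO fructose. Slc2a4, the insulin-responsive carrier, stood at 0.516, 0.402, 0.605 and 0.573 FPKM in WT water and at 0.206, 0.474, 0.426 and 0.422 FPKM in WT fructose. BgnKO water gave 0.567, 0.469, 0.441 and 0.733 FPKM, and BgnKO fructose gave 0.435, 0.608, 0.862 and 0.765 FPKM. Of the BgnKO fructose libraries, 3 lay above all WT fructose libraries and replicate 1 lay among them. The means on fructose, 0.667 ± 0.187 FPKM in BgnKO and 0.382 ± 0.120 FPKM in WT (SD, n = 4), missed the threshold in a two-sided exact permutation test (p = 0.0571). Slc2a10, mutated in arterial tortuosity syndrome in people, stood at 0.724 ± 0.0829 FPKM in BgnKO fructose and at 0.526 ± 0.119 FPKM in WT fructose (SD, n = 4, exact permutation p = 0.0857). With 4 against 4 libraries the smallest p such a test can give is 0.0286. Fitted with all genes and no filter, the adjusted p-values of limma were 0.113 for Slc2a4 and 0.104 for Slc2a10. At such levels the files give no way to tell how many reads stand behind a value.

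The genes that act with the carriers, in 3 lists, were counted in the same fit. Of 20 hexokinases and enzymes of fructose metabolism, 10 could be tested and 0 were called in any of the 7 comparisons. On fructose, BgnKO against WT was largest by unadjusted p for Pfkfb2, a bifunctional enzyme that sets fructose 2,6-bisphosphate (log2 fold -0.16, unadjusted p = 0.0412, limma adjusted p = 0.211). Khk, ketohexokinase, was held in an entry joined with Emilin1 and Hk1 in one joined with Hkdc1, so neither could be read alone. Of 24 other carriers of sugars, inositol and monocarboxylates, 12 could be tested, and 1 was called, in BgnKO against WT averaged over the drinks (where 4.99% of all genes were called) and in none of the other 6 comparisons: Slc16a1 (MCT1), the lactate and ketone carrier.

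Slc16a1 stood at 13.4 to 17.5 FPKM in WT water and 12.1 to 16.9 FPKM in WT fructose, and at 16.02 to 21.8 FPKM in BgnKO water and 17.4 to 22.3 FPKM in BgnKO fructose. It rose in BgnKO averaged over the drinks by 0.33 on the log2 scale (SE 0.08, limma adjusted p = 0.0310). This call was lost without any 1 of WT water replicate 4, WT fructose replicates 2 or 4, BgnKO water replicates 3 or 4 or BgnKO fructose replicate 3 (adjusted p = 0.0534 to 0.0678), without BgnKO fructose replicate 4 and the library labelled WT fructose replicate 1 (0.0694), and with the highest locus of the name in place of the sum (0.153). In the same average 12 of 12 endothelial markers had a positive fold (median 0.22, 1 called). Astrocyte markers did in 13 of 14 (median 0.21, 5 called) and neuronal markers in 4 of 15 (median -0.13, 0 called). Of all tested genes, 48.1% had a positive fold and 4.99% were called. The part of these markers in the Slc16a1 call was not tested.

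Of 29 regulators of the abundance and trafficking of glucose carriers, 26 could be tested, and 3 were called in BgnKO against WT on fructose (3.76% of all genes were), 2 higher and 1 lower. The same count was called averaged over the drinks (4.99% of all genes were), and 0 in the other 5 comparisons. Rhoq (TC10), a small GTPase of the insulin pathway to GLUT4 vesicles, stood at 9.07, 8.55, 7.26 and 8.02 FPKM in WT fructose and at 11.3, 9.98, 10.6 and 11.95 FPKM in BgnKO fructose. Rhoq rose by 0.38 (SE 0.08, limma adjusted p = 0.0170). Stx4a (syntaxin 4), the plasma membrane receptor of those vesicles, stood at 25.1, 26.5, 29.1 and 26.3 FPKM in WT fructose and at 32.5, 37.3, 32.0 and 40.2 FPKM in BgnKO fructose. It rose by 0.39 (SE 0.09, adjusted p = 0.0287). Irs2, an adaptor of the insulin receptor, stood at 25.7, 30.3, 25.6 and 30.98 FPKM in WT fructose and at 24.2, 22.3, 21.99 and 20.3 FPKM in BgnKO fructose, and fell by 0.33 (SE 0.08, adjusted p = 0.0408).

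Markers of several cell types moved in the same comparison as Rhoq, Stx4a and Irs2, where 3.76% of all tested genes were called and 47.5% had a positive fold. Of the hippocampal neuron markers, 1 of 11 had a positive fold in BgnKO against WT on fructose (median -0.25), and 1, Wfs1, a marker of CA1 pyramidal cells, was called lower (log2 fold -0.74, limma adjusted p = 0.00346). Their sum was 427 to 527 FPKM in WT fructose and 305 to 476 FPKM in BgnKO fructose. General neuronal markers were positive in 2 of 15 (median -0.18, 0 called), with sums of 4709 to 5245 FPKM in WT fructose and 3686 to 4672 FPKM in BgnKO fructose. Microglial markers were positive in 15 of 15 (median 0.34, 0 called), with sums of 239 to 300 FPKM in WT fructose and 310 to 408 FPKM in BgnKO fructose. The astrocyte and endothelial markers given beside Slc2a1 were higher too, as were the choroid plexus markers given beside Slc2a12. Meningeal and fibroblast markers were positive in 13 of 13 (median 0.47, 0 called) and ependymal markers in 10 of 10 (median 0.27, 0 called). On water the meningeal and fibroblast markers were also positive in 13 of 13 (median 0.44, 0 called), where 49.4% of all tested genes were positive. No marker of these lists was at 0, and their part in the 3 calls was not tested.

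Averaged over the drinks, the same 3 genes were called: Stx4a rose by 0.37 (limma adjusted p = 0.00388), Rhoq rose by 0.29 (adjusted p = 0.00655) and Irs2 fell by 0.23 (adjusted p = 0.0320). On fructose alone the Rhoq call was lost without WT fructose replicate 4 (adjusted p = 0.0578) or BgnKO fructose replicate 4 (0.0579). The Stx4a call was lost without the library labelled WT fructose replicate 1 (0.0638), without WT fructose replicates 2 or 4 or BgnKO fructose replicates 2 or 4 (0.0546 to 0.0996), and with the first and last of these both left out (0.163). The Irs2 call was lost with the same pair left out (0.108) and without each of WT water replicates 2 and 3, WT fructose replicates 2 and 4, BgnKO water replicate 3 and BgnKO fructose replicates 2, 3 and 4 (0.0509 to 0.133). Averaged over the drinks it was lost without each of WT water replicate 4, WT fructose replicates 2 and 4, BgnKO water replicates 1, 3 and 4 and BgnKO fructose replicates 3 and 4 (0.0534 to 0.0716). Slc2a4, the carrier that these proteins handle in muscle and fat, averaged 0.532 FPKM in these libraries.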

How the data were processed

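Per the labels' protocols, polyadenylated RNA was reverse transcribed with random hexamers and sequenced on a Illumina HiSeq. The submitters' processing notes name TopHat, TopHat2, Bowtie, Bowtie2, Cufflinks, Cuffdiff and the build mm10. Versions, annotation, strand setting and normalization are not given in the sources used here. The values are FPKM as the authors deposited them, in 1 table of 27670 loci by 16 libraries. The 4269 loci without a gene name were left out, and loci of 1 name were summed.

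Tests used limma 3.58.1 in R 4.3.3 (4 group means, moderated variances with a mean-variance trend, no block) on log2(FPKM + 1) of the 12648 named genes averaging 1 FPKM or more, adjusted by Benjamini and Hochberg within each of 7 comparisons with a threshold of 0.05. Members under the filter had an exact permutation test. Correlations (Python 3.11.15, numpy 2.4.6, scipy 1.17.1) used log2 levels after the mean of the replicate 1 libraries and of the other 12 was subtracted, with 100000 permutations within these 2 sets. Group means were not subtracted, so differences of genotype and drink enter r and its p. The code was tested on simulated data. All 10 members are named, and up to 4 genes of each pathway list by unadjusted p in a comparison that is described, and the 3 genes of highest r for each tested member. Genes most like a member have no p. Positions are from GENCODE vM21 (GRCm38).

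The members, lists and the treatment of the replicate 1 libraries were chosen with earlier results of these data known. For fructose against water, libraries of 1 replicate number deviated together from their group means in every pair (correlations of 0.118 to 0.699 in WT and 0.197 to 0.612 in BgnKO), which by the rule used here pairs them. In replicates 2 to 4 alone the WT correlations were 0.00321 to 0.135 and the BgnKO ones -0.0424 to 0.314, so the pairing rests on replicate 1. Alternatives were 2 other scalings, a pseudocount of 0.1, no filter or a mean of at least 5 FPKM, a term for replicate 1, replicates 2 to 4 alone, the replicate number as a block, the highest locus of a name, no mean-variance trend, and leaving out each library in turn or BgnKO fructose replicate 4 and the library labelled WT fructose replicate 1 together.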

Additional observations from a re-analysis of the deposited data

Results flagged for a closer look

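Of 40 groups of 4 values (10 members in 4 groups), 2 held a library whose gap to the nearest of the others, divided by the range of the group, was above Dixon's critical value. Slc2a3 was at 34.95 FPKM in BgnKO water replicate 1, where the other 3 libraries lay between 29.2 and 29.7 FPKM (ratio 0.910). Slc2a12 was at 4.902 FPKM in WT water replicate 4, where the others lay between 2.08 and 2.42 FPKM (ratio 0.878). Chance alone sets apart about 1 group in 20, that is 2 of 40.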

How the results depend on the processing

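The 56 results (8 members in 7 comparisons) were recomputed under 27 other settings, except that Slc2a5, Slc2a9 and Slc2a12 have no value at a mean of at least 5 FPKM and were recomputed under 26. With the replicate number as a block, 1 member was called in BgnKO against WT on fructose, where the fit without the block called 0: Slc2a12, with the same log2 fold of 1.12 and a limma adjusted p of 0.0464 in place of 0.108. For BgnKO against WT, the water libraries of replicate 4 did not deviate together (correlation -0.0402), while those of replicate 1 did (0.689). On fructose every same-number correlation was positive, from 0.750 for replicate 1 down to 0.0868 for replicate 4. The rule used here took that lowest value as too small to pair the libraries. It lay close to the 0.118 that was accepted for fructose against water in WT. In replicates 2 to 4 alone, replicate 4 fell to -0.256 on fructose and replicate 2 stood at 0.205. Whether Slc2a12 was called therefore depended on this choice. No other member was called under any setting, and the paired fit changed no call of fructose against water. Over all tested genes the calls on fructose between genotypes were 475 without the block, 2483 (19.6%) with it, 2190 with a term for replicate 1 and 1377 in replicates 2 to 4. Averaged over the drinks they were 631, 2508, 2279 and 1590. On water they were 49, and 126 with the term. The Slc2a12 fold on fructose was 0.80 to 1.46 (adjusted p = 0.0538 to 0.338) when each library was left out in turn. Of the 56 results, 34 kept their sign under each setting that gave a value, and 22 changed it in at least 1, none of them with a main fold over 0.19 in size. Read depth is unknown, so the precision at the level of Slc2a4 and Slc2a10 cannot be given.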
